A study of Mus musculus with 6 samples.

Results

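Bile acids are made from cholesterol in hepatocytes, and the expression of the genes for this pathway was examined here in liver RNA-seq of mice on a high-fat diet (HFD) with and without allantoin, an oxidation product of uric acid, in the drinking water. The genes were 9 enzymes of the pathway and 1 repressor of it, taken as a fixed list by their GENCODE M21 symbols, with no threshold on their values: Cyp7a1, Cyp8b1, Cyp7b1, Cyp27a1, Cyp39a1, Cyp46a1, Akr1d1, Slc27a5, Baat and Nr0b2, which encodes the small heterodimer partner SHP. These are 10 of 54961 entries in the table of read counts, and 10 of 10 passed the filter on low counts that left 12795 genes for testing.

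The classical route of bile acid synthesis begins with CYP7A1, its rate-limiting enzyme, and CYP8B1 then sets the share of cholic acid by hydroxylating the steroid ring. The alternative routes begin with oxidation of the cholesterol side chain, by CYP27A1 in many tissues and by CYP46A1 mainly in the brain, and the oxysterols are then hydroxylated by CYP7B1 or CYP39A1. The routes share AKR1D1, the reductase of the steroid ring, and the conjugating enzymes SLC27A5, which joins bile acids to coenzyme A, and BAAT, which transfers them to taurine or glycine. SHP is a nuclear receptor without a DNA-binding domain. Its gene is a target of the bile acid receptor FXR, and SHP represses Cyp7a1 and Cyp8b1.

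Both groups were wild-type male C57BL/6J mice that, according to the methods of the study, were 8 weeks old at the start, were fed the HFD for 4 weeks and kept on the same diet for 4 weeks more. The HFD+Allantoin-H group, which the sample labels call HFD+allantoin, also drank allantoin during the second period. The labels name 0.06 and 0.3 mg/mL for the series without assigning either to a library, and the dose of 0.3 mg/mL for this group comes from the study's methods. Each group had 3 libraries (HFD replicates 1 to 3 and HFD+Allantoin-H replicates 4 to 6), so that the comparison is of allantoin on top of the diet, and mice on chow or on the lower dose were not analysed here. The labels do not say in words that each library came from a separate mouse, and p-values measure the spread between these libraries.

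The libraries held 11326372 to 14601457 counts. Genes of the mitochondrial chromosome took 17.93% to 36.49% of the counts in HFD libraries and 6.918% to 11.36% in HFD+Allantoin-H libraries, and leaving that chromosome out kept the 4 calls among the 10 genes. All 10 hepatocyte markers were above the filter on low counts, with a summed level of 94214 to 95139 CPM (counts brought to one library size after TMM normalization) in HFD and 77239 to 106960 CPM in HFD+Allantoin-H. Markers of other cells, also given as summed levels, differed between the groups. Kupffer cell markers were at 92.1 to 213 CPM in HFD and 253 to 287 CPM in HFD+Allantoin-H, with 3 of 6 called higher. Stellate cell markers were at 109 to 198 and 231 to 286 CPM, with 4 of 7 called higher. Endothelial markers were at 69.1 to 132 and 116 to 183 CPM with 0 of 6 called. The 8 cholangiocyte markers were at 44.6 to 170 and 33.1 to 87.1 CPM, and of the 4 tested, 1, Sox9, was called lower. Their highest level was that of HFD replicate 3, with Spp1 at 110 and Sox9 at 43.6 CPM in that library. For comparison, 11.3% of all tested genes were called higher and 13.0% lower. HFD replicate 2 held adipocyte RNA, with Adipoq at 51.4 CPM in that library and at 0 in HFD replicates 1 and 3. The summed level of the 7 adipocyte markers was 72.1 to 515 CPM in HFD and 38.6 to 94.2 CPM in HFD+Allantoin-H. In HFD replicates 1 and 3 most of this sum was Cfd, at 78.1 and 60.2 CPM, with Plin1, Lep and Retn at 0. The part of these other cells in the values of the 10 genes was not tested. No batch or date is given for any library, so a batch and the treatment cannot be told apart.

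Primers are shown for the genes that were also assayed by qPCR, 7 of the 10, because they mark the part of each transcript that qPCR reads, whereas the counts below cover the whole gene. They come from the supplementary primer list, are written 5′ to 3′ in lower case, and each pair was located on the GENCODE M21 transcripts (GRCm38).
Cyp7a1 forward: caacgggttgattccatacc
Cyp7a1 reverse: atttccccatcagtttgcag
Cyp8b1 forward: tggcctctttcacttctgct
Cyp8b1 reverse: cggaacttcctgaacagctc
Cyp7b1 forward: ttctctgggcctctctagca
Cyp7b1 reverse: cagggcttccatagcttcag
Cyp27a1 forward: gagagtgaatcaggggacca
Cyp27a1 reverse: tcaggaatggagggtttcag
Cyp46a1 forward: catgagacttctgccaacca
Cyp46a1 reverse: cttggaaccgacaacctcat
Slc27a5 forward: gctgcataaagatgtggctttc
Slc27a5 reverse: agccctcagacccagtacac
Cyp39a1 forward: tcattctggaaccctcctgc
Cyp39a1 reverse: cagcccaaagtacgaccagt

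The Cyp7a1 pair spans 119 bp within exon 2 (chr4:6273682-6273800, minus strand) and is held by 1 of the gene's 2 transcripts. The Cyp8b1 pair spans 120 bp of the single exon of that gene (chr9:121915648-121915767, minus strand). For Cyp7b1 the pair lies in exon 4 and spans 89 bp (chr3:18096626-18096714, minus strand). The Cyp27a1 pair runs from exon 3 to exon 4 (chr1:74735413-74735611, plus strand) with an amplicon of 122 bp in 2 of 3 transcripts, and the Cyp46a1 pair runs from exon 10 to exon 11 (chr12:108355426-108357523, plus strand) with an amplicon of 108 bp in 1 of 4 transcripts. The Slc27a5 pair spans 164 bp of exon 1 (chr7:12997645-12997808, minus strand) in 2 of 4 transcripts. Both ends of these 6 amplicons lie in coding sequence, and no other gene's M21 transcript holds both primers of a pair. The Cyp39a1 reverse primer matched 3 of the gene's 4 transcripts and the forward primer matched 0 of 4, so no amplicon could be placed.

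A pair of promoter sequences is shown for the genes among those called below that had an entry in the RefSeq promoter table, Nr0b2 and Akr1d1. The table held 5 of the 10 genes (Cyp8b1, Cyp27a1, Cyp46a1, Akr1d1 and Nr0b2), each with 250 bases before and 50 after the start site of GRCm38.p6. The letters searched on both strands were AGGTCA, the hexamer recognised by many nuclear receptors, CAAGGTCA, which extends it to the form NR5A2 reads, the DR1 element, a direct repeat of AGGTCA spaced by a single base, CACGTG, the E-box read by CLOCK and BMAL1 among others, and TTANGTAA, the D-box read by DBP, TEF, HLF and NFIL3. The 250 bases before each start site are printed, with matches in capitals.
Nr0b2, chr4:133553126-133553375, plus strand: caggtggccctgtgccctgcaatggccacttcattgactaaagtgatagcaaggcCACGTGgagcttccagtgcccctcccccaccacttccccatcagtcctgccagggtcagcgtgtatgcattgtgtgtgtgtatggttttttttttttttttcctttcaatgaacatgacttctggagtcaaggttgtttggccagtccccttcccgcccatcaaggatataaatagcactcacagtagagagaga
Akr1d1, chr6:37529923-37530172, plus strand: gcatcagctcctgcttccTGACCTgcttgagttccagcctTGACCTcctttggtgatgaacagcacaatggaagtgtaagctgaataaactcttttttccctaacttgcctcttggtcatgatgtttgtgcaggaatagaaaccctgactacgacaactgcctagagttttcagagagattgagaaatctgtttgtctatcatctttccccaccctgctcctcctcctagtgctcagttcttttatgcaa

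The Nr0b2 window held 1 E-box, whose first base lies at -195 from the start site, and 7.15% of the 32851 promoter windows of the same length held these letters. In the Akr1d1 window, TGACCT, which is AGGTCA read on the other strand, stood at -232 and -210. AGGTCA was present at least 1 time on either strand in 16.3% of all windows, and the share with more than 1 match was not computed. The windows of Cyp8b1, Cyp27a1 and Cyp46a1 had 0 matches to any of the 5 motifs, of which CAAGGTCA was present in 1.56%, TTANGTAA in 2.32% and DR1 in 0.0396% of all windows.

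At an adjusted p under 0.05 from edgeR's quasi-likelihood test, 2 of the 10 genes were called higher with allantoin (Cyp7a1 and Akr1d1) and 2 were called lower (Cyp7b1 and Nr0b2). Among all 12795 genes tested, 24.3% were called in either direction, 11.3% higher and 13.0% lower. The median log2 fold change of the 10 genes was 0.38, against -0.03 for all genes, with 6 above and 4 below 0. In 6 of the 10 the libraries of the groups did not overlap, where 44.3% of all genes did not, and besides the 4 called genes these were Cyp39a1 and Slc27a5, both higher in HFD+Allantoin-H. Since the livers were sampled in bulk, fewer cells of a type and less RNA per cell cannot be told apart. None of the 10 genes shares exonic bases with another gene or has a near-identical transcript elsewhere (at least 95% identity over at least 200 bases).

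**Figure D1:**
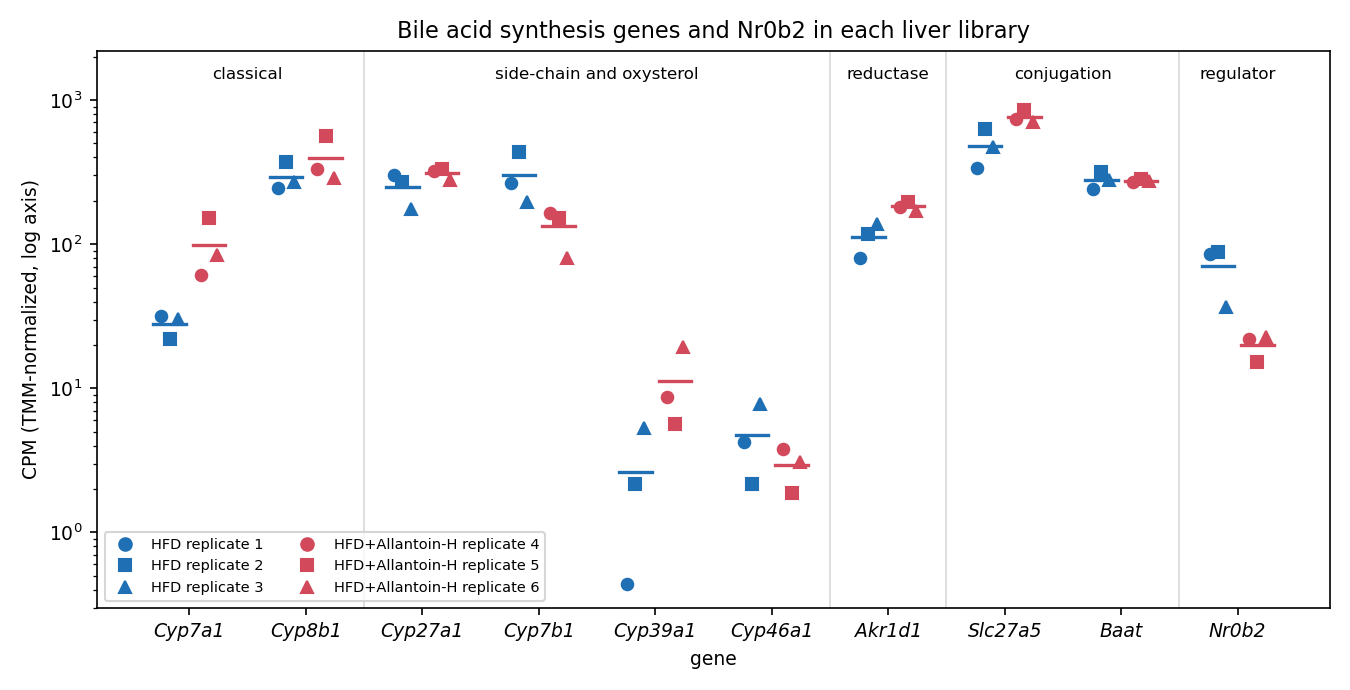
Level of each of the 10 genes in each library, in CPM on a log axis, with points for the libraries of HFD and HFD+Allantoin-H and bars for the group means. Cyp7a1 lies at 22.1 to 31.8 CPM in HFD and at 61.1 to 151 CPM in HFD+Allantoin-H, and Nr0b2 shows the opposite order.

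The gene of the rate-limiting enzyme had the largest called increase of the 10. Cyp7a1 (ENSMUSG00000028240, chr4:6265612-6275633, minus strand, 6 exons) was at 31.8, 22.1 and 30.5 CPM in HFD replicates 1 to 3 and at 61.1, 151 and 84.1 CPM in HFD+Allantoin-H replicates 4 to 6, from 224 to 365 and 833 to 2558 counts. All 3 HFD+Allantoin-H libraries lay above the highest HFD library, and replicate 5 was 2.48 times replicate 4. The mean rose from 28.1 ± 5.24 to 98.8 ± 46.9 CPM (SD, n = 3), a fold of 3.51 (95% interval 2.11 to 5.84) and a log2 fold change of 1.81 (SE 0.32) with an adjusted p of 0.00660 in edgeR. This change stood at percentile 98.3 of the log2 fold changes of all tested genes. It was called under each of 17 other settings, between 1.37, without HFD+Allantoin-H replicate 5, and 2.23.

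Cyp8b1, the other enzyme of the classical route, did not pass the test. Cyp8b1 (ENSMUSG00000050445, chr9:121914356-121916305, minus strand, a single exon) was at 244, 369 and 269 CPM in HFD and at 335, 568 and 286 CPM in HFD+Allantoin-H. The groups overlapped, with HFD replicate 2 above HFD+Allantoin-H replicates 4 and 6. The log2 fold change was 0.43 with a 95% interval of -0.20 to 1.06 and an adjusted p of 0.285, so that changes from slightly lower to about 2.08-fold higher are within the interval. Without HFD+Allantoin-H replicate 5 it was 0.08.

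Of the genes that act on oxysterols, Cyp7b1 fell and Cyp39a1 had higher values that did not pass the test. Cyp7b1 (ENSMUSG00000039519, chr3:18071950-18243338, minus strand) was at 265, 439 and 198 CPM in HFD and at 166, 153 and 80.7 CPM in HFD+Allantoin-H, with 1195 to 4448 counts behind these values. The lowest HFD library, replicate 3, still lay above the highest HFD+Allantoin-H library, replicate 4. The mean fell from 300 ± 125 to 133 ± 45.7 CPM (SD, n = 3), 2.26-fold lower, with a log2 fold change of -1.18 (SE 0.34, 95% interval -1.95 to -0.40) and an adjusted p of 0.0372. HFD replicate 2, which held the adipocyte RNA, was also the highest HFD library in Cyp7b1, as it was in Cyp8b1, Slc27a5, Baat and Nr0b2. Without that library the log2 fold change of Cyp7b1 was -0.80 with an adjusted p of 0.10. The call was also lost without HFD replicate 1 (-1.26), HFD+Allantoin-H replicate 4 (-1.36), replicate 5 (-1.28) or replicate 6 (-0.91), at adjusted p-values of 0.0582 to 0.109, and with scaling by library size (-0.75, adjusted p = 0.143).

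Cyp7b1 is known for higher expression in male than in female mouse liver. A list of 12 male-biased liver genes that includes it had 4 members called lower and 0 called higher, against 13.0% and 11.3% of all tested genes. The median of the list was -1.10 on the log2 scale, and -0.68 with scaling by library size. Without HFD replicate 2 it was -0.77, and without HFD+Allantoin-H replicate 6 also -0.77. The other 3 called were Elovl3, a fatty acid elongase, at -1.86 (adjusted p = 0.0217), Selenbp2, a selenium-binding protein, at -1.55 (adjusted p = 0.0465), and Cyp4a12a, a fatty acid hydroxylase, at -0.78 (adjusted p = 0.0283). Reads of Selenbp2 and Cyp4a12a may be shared with the near-identical Selenbp1 and Cyp4a12b. The part of any male-biased programme in the Cyp7b1 value was not tested.

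Cyp39a1 (ENSMUSG00000023963, chr17:43667425-43751431, plus strand) had low counts, 4, 22 and 63 in HFD and 119, 96 and 288 in HFD+Allantoin-H. These were 0.437, 2.17 and 5.27 CPM against 8.72, 5.68 and 19.4 CPM, and a count of 4 has an exact Poisson 95% interval of 1.09 to 10.2, which covers counting error only. The groups did not overlap, although HFD replicate 3 and HFD+Allantoin-H replicate 5 were nearly at one level. The log2 fold change of 2.06 had a wide interval (0.49 to 3.64) and an adjusted p of 0.0592. It passed the threshold without HFD replicate 3 (3.08, adjusted p = 0.0123), with DESeq2 (2.09, adjusted p = 0.00631), with scaling by library size (2.40, adjusted p = 0.0294) and without the filter on low counts (2.10, adjusted p = 1.07e-08). Without HFD+Allantoin-H replicate 6, the highest library, it was 1.42 with an adjusted p of 0.224. The very small value without the filter was not particular to Cyp39a1. That edgeR fit also gave 9.96e-15 for Cyp7a1 and 1.26e-13 for Nr0b2, against 0.00660 and 0.00721 in the main fit.

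In mouse liver Cyp39a1 is known as a female-biased gene. Of a list of 12 such genes that includes it, 3 passed the filter and 6 were under 1 CPM in every library. Of the 3 tested, 1 was called higher and 0 lower, against 11.3% and 13.0% of all tested genes. The called gene was Acot3, an acyl-CoA thioesterase, at 2.87 (adjusted p = 0.0110), with reads that may be shared with overlapping transcripts. The list's median over the 3 tested genes was the value of Acot3 itself, 2.87. Without HFD+Allantoin-H replicate 6 it was 1.42, the value of Cyp39a1 in that fit, so the median adds nothing beyond single genes. Cyp2b9, the remaining gene tested, was at 5.04 and did not pass the test. Its level was 194 CPM in HFD+Allantoin-H replicate 6 against 5.57 and 2.66 CPM in replicates 4 and 5.

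The enzymes that open the alternative routes did not pass the test. Cyp27a1 (ENSMUSG00000026170, chr1:74713574-74737892, plus strand), the mitochondrial sterol hydroxylase, was at 301, 270 and 176 CPM in HFD and at 323, 335 and 280 CPM in HFD+Allantoin-H. HFD replicate 1 lay within the range of the other group. The log2 fold change was 0.33 (95% interval -0.16 to 0.82, adjusted p = 0.292), and it was 0.13 without HFD replicate 3, the lowest library. With scaling by library size alone it was called, at 0.77 (adjusted p = 0.0285), and that scaling moved the median of all genes by 0.41.

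Cyp46a1 (ENSMUSG00000021259, chr12:108334381-108362234, plus strand), known from neurons, was near the lower end of what was measured, with 22 to 93 counts per library. Its level was 4.26, 2.17 and 7.77 CPM in HFD and 3.81, 1.89 and 3.10 CPM in HFD+Allantoin-H, and the groups overlapped. The log2 fold change was -0.70 (95% interval -1.79 to 0.39, adjusted p = 0.313), and without HFD replicate 3 it was -0.13. Of 6 neuronal markers, Syt1 was at 5.13 to 9.58 CPM across the 6 libraries, Rbfox3 at 0.0675 to 1.88 CPM and Map2 at 0.109 to 1.24 CPM, while Snap25, Tubb3 and Stmn2 were under 1 CPM in every library. Together they summed to 6.99 to 13.2 CPM in HFD and 8.52 to 9.31 CPM in HFD+Allantoin-H.

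Akr1d1, the ring reductase shared by the routes, rose and varied little within HFD+Allantoin-H. Akr1d1 (ENSMUSG00000038641, chr6:37530173-37568815, plus strand), whose promoter with 2 TGACCT hexamers is printed above, was at 80.7, 118 and 138 CPM in HFD and at 182, 197 and 170 CPM in HFD+Allantoin-H. Every HFD+Allantoin-H library was above every HFD library, and the spread within that group was 1.15-fold against 1.71-fold in HFD. The mean rose from 112 ± 28.9 to 183 ± 13.2 CPM (SD, n = 3), or by 0.71 on the log2 scale (SE 0.21, 95% interval 0.23 to 1.18) with an adjusted p of 0.0391. The call was lost without HFD replicate 1 (0.52, adjusted p = 0.0528), HFD replicate 2 (0.75, adjusted p = 0.0676), HFD+Allantoin-H replicate 4 (0.72, adjusted p = 0.109), replicate 5 (0.66, adjusted p = 0.135) or replicate 6 (0.76, adjusted p = 0.0847).

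The conjugating enzymes differed from each other. Slc27a5 (ENSMUSG00000030382, chr7:12988346-12998192, minus strand) was at 336, 631 and 475 CPM in HFD and at 741, 856 and 709 CPM in HFD+Allantoin-H. The groups did not overlap, but the log2 fold change of 0.68 (SE 0.24, 95% interval 0.14 to 1.21) had an adjusted p of 0.0650. It passed the threshold with DESeq2 (adjusted p = 0.0235), with limma-voom (adjusted p = 0.0476), without the filter on low counts (adjusted p = 0.0104), after removal of each library's trends in GC content and transcript length (adjusted p = 0.0449), with scaling by library size (1.07, adjusted p = 0.0240) and without HFD replicate 2 (0.92, adjusted p = 0.0257).

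Baat (ENSMUSG00000039653, chr4:49489422-49506557, minus strand) was the steadiest of the 10 genes in HFD+Allantoin-H, at 272, 282 and 274 CPM, and it was at 241, 315 and 280 CPM in HFD. The HFD+Allantoin-H libraries lay inside the range of the HFD libraries. The log2 fold change was -0.02 with a 95% interval of -0.38 to 0.35 (adjusted p = 0.955), and in linear terms the interval runs from 0.767-fold to 1.27-fold.

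Nr0b2, the repressor, had the largest decrease. Nr0b2 (ENSMUSG00000037583, chr4:133553376-133556536, plus strand, 2 exons), whose promoter with the E-box is printed above, was at 85.5, 88.6 and 36.6 CPM in HFD and at 21.9, 15.1 and 22.9 CPM in HFD+Allantoin-H, from 438 to 897 and 256 to 339 counts. HFD replicate 3 was well below the other HFD libraries and still above all HFD+Allantoin-H libraries. The mean fell from 70.2 ± 29.2 to 19.98 ± 4.22 CPM (SD, n = 3), 3.51-fold lower, with a log2 fold change of -1.81 (SE 0.33, 95% interval -2.56 to -1.06) and an adjusted p of 0.00721. It was called under each of 17 other settings, between -2.12, without HFD replicate 3, and -1.37, with the trend in length and GC content removed.

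**Figure D2:**
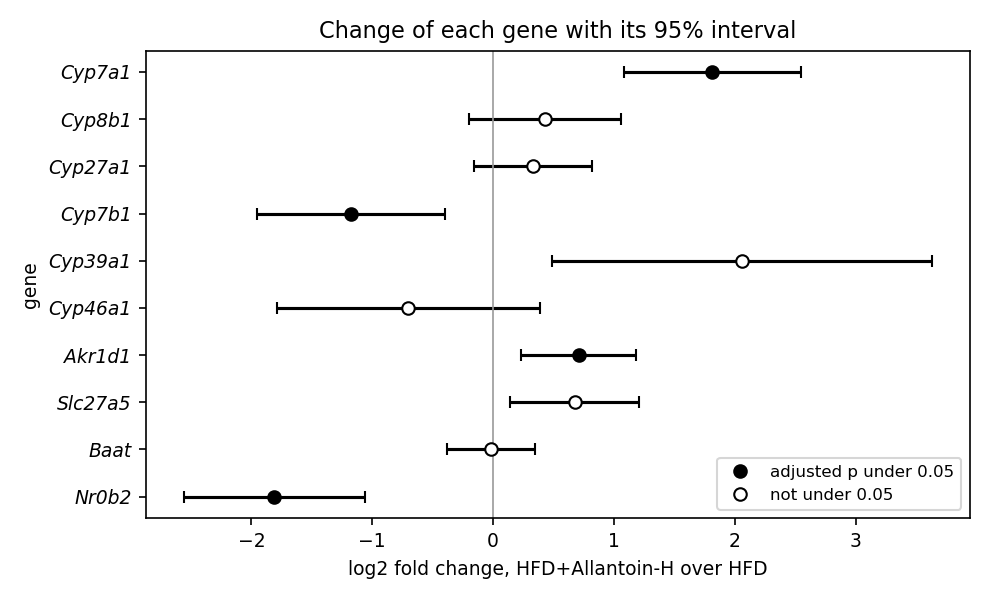
Log2 fold change of each of the 10 genes, HFD+Allantoin-H over HFD, as points with 95% intervals from edgeR and a line at 0. The intervals of Cyp7a1, Akr1d1, Slc27a5 and Cyp39a1 lie above 0 and those of Cyp7b1 and Nr0b2 below it, while the adjusted p is under 0.05 for Cyp7a1, Akr1d1, Cyp7b1 and Nr0b2 only.

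To compare the genes with each other, levels were divided by the length of each gene's exons, and the following levels are mean CPM per kilobase. In HFD livers Slc27a5 was highest at 197 ± 60.6, followed by Cyp8b1 at 151 ± 34.0, Baat at 144 ± 19.0, Cyp7b1 at 139 ± 57.6 and Cyp27a1 at 115 ± 29.8 CPM per kilobase (SD, n = 3). Neighbours among these 5 overlapped in range. Nr0b2 at 62.0 ± 25.8 and Akr1d1 at 38.7 ± 9.99 CPM per kilobase formed the next pair and overlapped with each other, but not with the genes above and below. Cyp7a1 followed at 6.74 ± 1.26 CPM per kilobase, below every one of these, and Cyp46a1 at 1.44 ± 0.86 and Cyp39a1 at 0.86 ± 0.80 CPM per kilobase were lowest.

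In HFD+Allantoin-H livers the top of the order was Slc27a5 at 315 ± 31.8, Cyp8b1 at 203 ± 77.2, Cyp27a1 at 144 ± 13.1 and Baat at 142 ± 2.87 CPM per kilobase, again with overlapping neighbours, although the highest Cyp8b1 library barely reached the lowest Slc27a5 library. Cyp7b1 stood below this set at 61.4 ± 21.1 CPM per kilobase beside Akr1d1 at 63.3 ± 4.56, whereas in HFD its range overlapped those of Baat and Cyp27a1. Cyp7a1 at 23.7 ± 11.2 and Nr0b2 at 17.7 ± 3.73 CPM per kilobase overlapped, whereas in HFD livers Nr0b2 was above Cyp7a1 in every library. Cyp39a1 at 3.69 ± 2.37 CPM per kilobase was above Cyp46a1 at 0.89 ± 0.30 without overlap. With the longest transcript in place of all exons, 0 genes changed their place in either group.

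Ratios of counts within a library do not depend on how libraries are scaled, and 5 were computed. They are ratios of counts and not of levels per kilobase, so that their change between groups is what they show. With 3 libraries against 3, a two-sided exact permutation test cannot give a p below 0.10, and each of the 5 gave p = 0.10, which is also the value adjusted over the 5. The groups did not overlap in any of them. Every ratio holds Cyp7a1 or Slc27a5, whose own groups did not overlap, so this separation is not independent of the values above. Nr0b2 counts were 2.69, 4.00 and 1.20 times the Cyp7a1 counts in HFD and 0.359, 0.10 and 0.272 times in HFD+Allantoin-H. This ratio was above 1 in each HFD library and below 1 in each HFD+Allantoin-H library, a difference of -3.45 in mean log2 ratio. Cyp7a1 over Cyp7b1, the count ratio of the first hydroxylase of the classical route to the oxysterol hydroxylase, was 0.120, 0.0504 and 0.154 in HFD and 0.369, 0.991 and 1.04 in HFD+Allantoin-H, a difference of 2.89 in mean log2 ratio.

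Cyp8b1 counts were 7.69, 16.7 and 8.83 times those of Cyp7a1 in HFD and 5.48, 3.75 and 3.40 times in HFD+Allantoin-H, so that the log2 ratio was lower by 1.34 although Cyp8b1 itself did not pass the test. Cyp27a1 counts were 9.47, 12.2 and 5.78 times those of Cyp7a1 in HFD and 5.28, 2.21 and 3.33 times in HFD+Allantoin-H, and HFD replicate 3 was close to HFD+Allantoin-H replicate 4. Slc27a5 over Baat, the ratio of the conjugating enzymes, was 1.39, 2.0 and 1.70 in HFD and 2.73, 3.04 and 2.59 in HFD+Allantoin-H, a difference of 0.73 in mean log2 ratio. The spread of this ratio was the smallest of the 5 in HFD+Allantoin-H, at a log2 SD of 0.12.

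**Figure D3:**
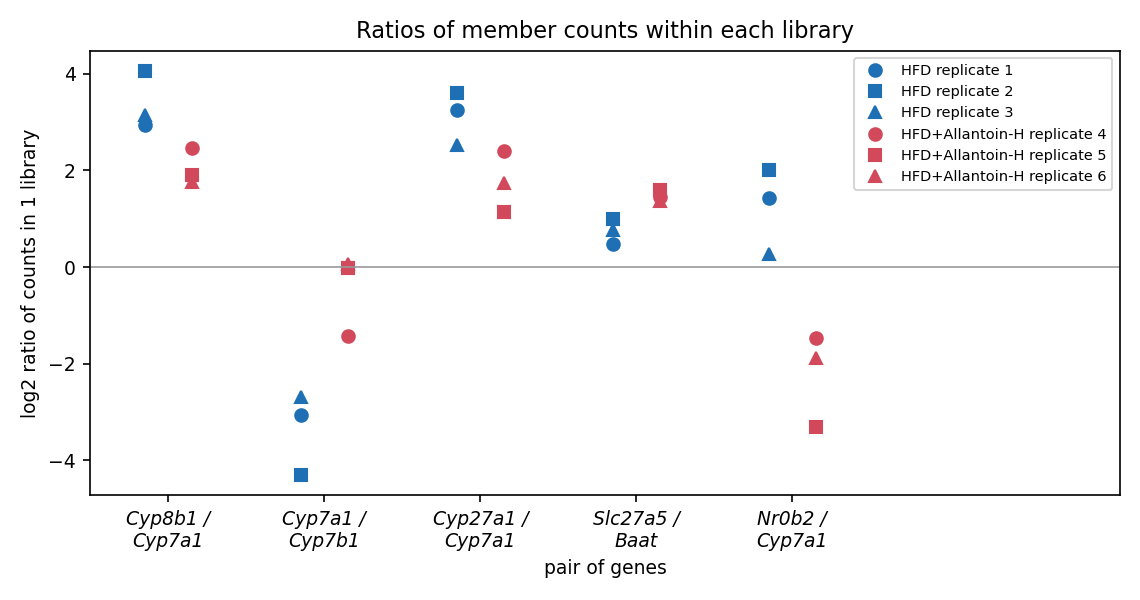
Log2 ratio of the counts of gene pairs within each library, with a point for each library of HFD and HFD+Allantoin-H and a line at 0. The Nr0b2 to Cyp7a1 ratio lies above 0 in the 3 HFD libraries and below 0 in the 3 HFD+Allantoin-H libraries, and no ratio overlaps between the groups.

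Among 14 other enzymes and carriers of bile acid synthesis, 12 were tested. Of these, 3 were called higher and 1 lower, against 11.3% and 13.0% of all tested genes. The median log2 fold change was 0.12. Leaving out HFD replicate 1 brought this median to 0.049, and leaving out HFD+Allantoin-H replicate 4 brought it to 0.037. Akr1c14, the hydroxysteroid dehydrogenase that acts on the ring beside AKR1D1, rose from 153 ± 50.4 to 348 ± 27.7 CPM (log2 fold change 1.19, adjusted p = 0.00928). Abcd3, a peroxisomal transporter that admits bile acid intermediates for side-chain shortening, rose by 1.25 (adjusted p = 0.00618), and Acnat1, a peroxisomal acyltransferase near-identical to Acnat2 over 635 bases, rose by 0.77 (adjusted p = 0.0299). Slc27a2, an acyl-CoA synthetase, fell by 0.53 (adjusted p = 0.0481). The side-chain enzymes Acox2 (0.21), Amacr (0.35), Hsd17b4 (0.12) and Scp2 (0.03) did not pass the test. Hsd3b7, which follows CYP7A1 in the pathway, was at 0.334 to 2.29 CPM and under the filter, and 62.0% of its exonic bases are shared with Gm49388 on the same strand, so its count is uncertain.

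Of 14 bile acid and sterol transporters, 12 were tested, and 5 were called higher and 0 lower, against 11.3% and 13.0% of all tested genes. Their median log2 fold change was 0.25, or 0.10 with the trend in length and GC content removed. At the sinusoidal side, the uptake carriers Slco1b2 (1.31, adjusted p = 0.00494), Slco1a4 (1.46, adjusted p = 0.0224) and Slc10a1 (0.69, adjusted p = 0.0398) rose, as did Abcc3, a basolateral exporter (1.49, adjusted p = 0.00248). At the canalicular side Abcg8, of the sterol exporter, rose by 0.72 (adjusted p = 0.0347). Abcg5, the other gene of that exporter, was at -0.27 (adjusted p = 0.357), and these genes share 82 exonic bases on opposite strands. Abcb11, the bile salt export pump, was at -0.29 (adjusted p = 0.193). Abcb11 is a target of FXR like Nr0b2.

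Of 19 receptors and regulators of the pathway, all of them tested, 5 were called higher and 1 lower, against 11.3% and 13.0% of all tested genes. Their median was 0.15. This median changed sign to -0.078 without HFD replicate 3 and was 0.053 without HFD replicate 2 and 0.37 without HFD replicate 1. Scaling by library size alone gave medians of 0.53, 0.67 and 0.62 for the other synthesis genes, the transporters and the regulators. Ppara, the fatty acid receptor, rose by 2.02 (adjusted p = 0.00389) and Klb, the co-receptor through which intestinal FGF15 acts on hepatocytes, rose by 1.36 (adjusted p = 0.00403). Rxra, the partner of FXR and other receptors, rose by 0.92 (adjusted p = 0.00787), the coactivator gene Ppargc1a by 1.0 (adjusted p = 0.0343) and Nr5a2, whose protein LRH-1 is a target of SHP repression, by 0.54 (adjusted p = 0.0362). Cebpb, a transcription factor gene that overlaps Tmem189 on the other strand, fell by 1.30 (adjusted p = 0.00340). Nr1h4, which encodes FXR itself, was at -0.59 with an adjusted p of 0.0507, Fgfr4, the FGF15 receptor, at -0.50 (adjusted p = 0.112) and Hnf4a at -0.11 (adjusted p = 0.735). Fgf15 was at 0 counts in all 6 libraries.

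**Figure D4:**
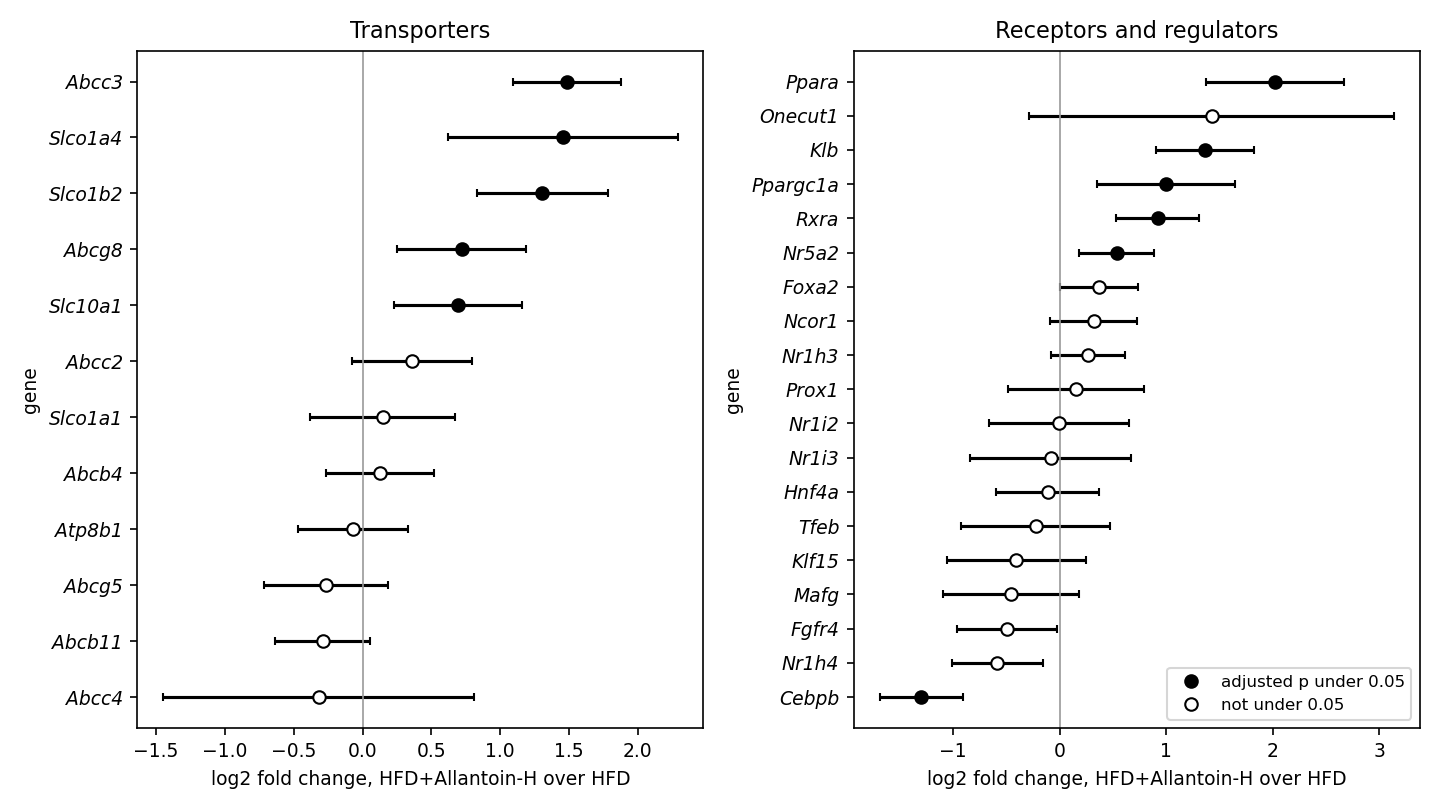
Log2 fold change, HFD+Allantoin-H over HFD, of the tested transporters (left) and of the receptors and regulators (right), as points with 95% intervals from edgeR, filled for an adjusted p under 0.05. The 5 called transporters and 5 of the 6 called regulators lie above 0, and Cebpb lies below it at -1.30.

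Cyp7a1 is known to follow the circadian clock, with D-box factors such as DBP among its activators, and the times of collection are not given in the sources used here. Of 18 clock factors 17 were tested, and 6 were called higher and 2 lower, against 11.3% and 13.0% of all tested genes. Bhlhe40 (1.26, adjusted p = 0.00448), Ciart (1.94, adjusted p = 0.00632) and Cry2 (0.98, adjusted p = 0.00844), repressors of the clock, rose. The D-box activators Hlf (0.77, adjusted p = 0.0146) and Dbp (1.42, adjusted p = 0.0196) and the period gene Per3 (1.35, adjusted p = 0.0390) rose too, whereas Per1 (-1.23, adjusted p = 0.0126) and Nfil3, the D-box repressor (-0.91, adjusted p = 0.0475), fell. Reads of Dbp and Ciart may be shared with the overlapping Sphk2 and the near-identical Gm9176. The part of collection time in the Cyp7a1 and Nr0b2 values was not tested.

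Zonation markers were read because Cyp7a1 is known to be a pericentral gene. Of 10 pericentral genes, 0 were called higher and 1 lower (Cyp1a2, -0.86, adjusted p = 0.0274), with a median of 0.38, which was 0.20 without HFD replicate 3 and 0.78 with scaling by library size. Of 10 periportal genes, 0 were called higher and 1 lower (Arg1, -0.75, adjusted p = 0.0239), with a median of -0.29, which was 0.12 with scaling by library size, 0.04 without HFD replicate 2, -0.13 without HFD+Allantoin-H replicate 6 and -0.48 without HFD+Allantoin-H replicate 5. The hepatocyte markers themselves did not move one way, with 2 of 10 called higher (Cps1 and Apob) and 4 lower. Among all tested genes, 11.3% were called higher and 13.0% lower. The part of the hepatocyte markers in the values of the 10 genes was not tested.

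Lastly, the genes with the profile most like that of 5 of the genes across the 6 libraries were listed, by the root mean square distance between log2 CPM values centred on each gene's mean, among 6917 genes that averaged 10 CPM or more over the 6 libraries, a limit that a gene could pass through one group alone. The libraries are shared by every gene, and the distances are a description. Nearest to Cyp7a1 were Hipk2, a protein kinase gene (distance 0.254), Tbc1d8b (0.285) and Glg1, of a Golgi protein (0.289). Among the genes near to Nr0b2 were the mitochondrial transfer RNA genes mt-Tc (0.237) and mt-Tn (0.268). Cyp7b1 was closest to Slc22a7, an organic anion transporter gene (0.153), Mup20, a major urinary protein gene (0.172), and the kinase gene Camk1 (0.248). Cyp8b1 was closest to Kyat3 (0.150) and Ankrd33b (0.156). The distances for Cyp27a1 were the smallest, at 0.0634 for Acvr1b, an activin receptor gene, 0.0737 for Rin3 and 0.0740 for Prodh, of proline dehydrogenase, and Cyp27a1 itself did not pass the test. Reads of Hipk2 may be shared with the near-identical part of Ubn2.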

How the data were processed

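Whole-number read counts per gene, not normalized, were deposited by the authors for 3 HFD and 3 HFD+Allantoin-H liver libraries. The kit was a SMARTER mRNA-Seq kit per the labels. The submitters' processing notes name the builds GRCm38 and mm10, and the aligner, the counting tool and its strand setting are not given in the sources used here. Of 54961 entries, the 429 without an Ensembl identifier were not used (they took 0.197% to 0.3058% of the counts), and 54495 of 54532 identifiers were found in GENCODE M21. No column was left unused. Totals were 11326372 to 14601457 counts. Their number limits the precision of low genes, for which exact Poisson intervals were computed.

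Genes were fitted in R 4.3.3 by edgeR 4.0.16, after TMM scaling (factors 0.7557 to 1.194) and filtering by filterByExpr, using the quasi-likelihood test with group as the only term and Benjamini-Hochberg adjustment over 12795 genes. Standard errors were derived from the F statistic, and intervals used 7.03 to 9.03 total degrees of freedom. These include the degrees of freedom that edgeR borrows across genes. Levels are CPM scaled by these factors, and levels per kilobase used the union of a gene's M21 exons. Within-library ratios had 0.5 added to each count for the test. Copies and overlaps were searched with BLAST 2.17.0 and the annotation. Replicate libraries differed by 18.2 to 154 times the sampling noise (chi-square per degree of freedom), so that none was a copy of another.

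The 10 genes, the gene lists, the motifs and the tests were chosen with earlier results of these data known. Genes named from a list are its called genes, at most the 5 with the smallest p, and others where they bear on one of the 10, the latter chosen after their values were seen. For Cyp7a1, Cyp7b1, Cyp8b1, Cyp27a1 and Nr0b2 the rule names the 3 nearest genes in profile, of which some are not reported here. The alternatives were RLE, upper-quartile and library-size scaling, DESeq2 1.42.0, limma-voom (limma 3.58.1), 3 other filters, removal of trends in length and GC content, leaving out the mitochondrial chromosome, keeping unnamed features, leaving out each library, and a threshold of 0.01. The study's qPCR values were not used, and its primer list served for sequences only.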

Additional observations from a re-analysis of the deposited data

How the results depend on the processing

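Cyp7a1 and Nr0b2 kept their direction and their call under all 17 alternative fits, and each of the 5 within-library ratios kept its sign without any one library and with 0 added to the counts. Leaving out a library could not turn the sign of a ratio, because the groups did not overlap in any of the 5. Main calls among the 10 genes were 2 higher and 2 lower (1446 and 1666 among all genes). Scaling by library size alone, which moved the median of all genes by 0.41, gave 5 higher and 1 lower (and 3162 higher and 674 lower among all genes). DESeq2 gave 4 higher and 2 lower (1747 and 1966 among all genes). No filter on low counts also gave 4 higher and 2 lower (1822 and 2134 among all genes), and a threshold of 0.01 gave 1 higher and 1 lower (443 and 573 among all genes). Leaving out one library at a time gave 1 to 3 higher (3 without HFD replicate 3, which adds Cyp39a1) and 1 to 2 lower among the 10, and 460 to 1773 higher and 564 to 2008 lower among all genes. These fits have fewer libraries, and without HFD+Allantoin-H replicate 5 both counts over all genes were lowest. The log2 fold change of Baat, at -0.02, changed sign with library-size scaling (0.39), without the filter (0.023) and when HFD replicate 2 (0.081) or HFD+Allantoin-H replicate 4 (0.0031) was left out, within a range of -0.11 to 0.081 over the 6 fits that left out a library. Cyp8b1 and Cyp46a1 were called in 0 of 17 alternatives. With a filter of at least 10 counts in every library, Cyp39a1 was not tested. No paired analysis was possible because the groups share no replicate numbers. With 3 libraries a group and low counts for Cyp39a1 and Cyp46a1, the intervals printed for those genes are wide, and the cause of the other changes was not tested.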
